A study of Mus musculus with 8 samples.

Results

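The genes described here are 8 genes that B cells and plasma cells use to make and secrete antibody: the light chain constant regions Igkc and Iglc3, the heavy chain constant regions Ighm, Ighd, Ighg1 and Igha, and the assembly genes Jchain and Mzb1. They were taken by gene name from the count table, in which all 8 have a row of their own among 26709 genes. The samples were mammary tumours of the mouse breast carcinoma line EMT6, grown in wild-type Balb/c mice, the strain the line comes from, so that the host's own immune cells were present. The treated group of 4 tumours received GrB-Fc-KS49, a fusion protein of human origin built around granzyme B, the protease of killer lymphocytes, and aimed at the surface protein EMP2; the labels write this group as Granzyme-B. The control group of 4 tumours received IgG. The study's design gives 3 treatments over 10 days; the age of the mice and the time of tissue collection are not stated. The question was how the treatment altered immune cell recruitment to the tumour.

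RNA came from whole tumours and was enriched for mRNA, so a lower level can mean fewer B lineage cells or less RNA in each, and these cannot be told apart. The labels name epithelial tumour cells as the cell type, and the 6 genes chosen as carcinoma context were detected in both groups at very different levels: Krt8, a keratin of simple epithelia, averaged 528 ± 108 CPM (counts scaled to a library of 1000000) in GrB-Fc-KS49 tumours, against 444 ± 23.3 CPM in IgG tumours (SD, n = 4 each). Epcam, an adhesion protein of epithelia, was low, at 8.16 ± 5.77 CPM in GrB-Fc-KS49 tumours, against 4.10 ± 0.61 CPM in IgG tumours. Mki67, a gene of dividing cells, averaged 255 ± 39.3 CPM in GrB-Fc-KS49 tumours, against 348 ± 12.8 CPM in IgG tumours, with every GrB-Fc-KS49 tumour lower (edgeR adjusted p = 0.0619). Emp2, the gene of the targeted protein, averaged 135 ± 29.7 CPM in GrB-Fc-KS49 tumours, against 135 ± 13.4 CPM in IgG tumours. Library totals lay between 74.0 and 82.6 M estimated counts (M, 1000000), with 79.3 ± 3.11 M for GrB-Fc-KS49 and 78.5 ± 3.54 M for IgG tumours. Nothing in the labels says which tumours came from separate animals, so each p-value speaks only for the spread among these samples, which may be technical. In each group 1 library has a name that ends in U, a mark the sources used here leave unexplained: GrB-Fc-KS49 replicate 3 and IgG replicate 1.

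An antibody is built from heavy and light chains, each with a variable segment that binds antigen and a constant region that sets its class. Naive B cells display IgM and IgD, whose constant regions Ighm and Ighd are spliced from 1 long transcript; after activation, class switching cuts out DNA and joins the variable segment to another constant region such as Ighg1 or Igha. Plasma cells then secrete antibody at a high rate, and their transcripts of constant regions, of the kappa light chain above all in mice, are among the most abundant mRNAs any cell makes. The J chain joins secreted IgM into pentamers and IgA into dimers, and Mzb1 is a chaperone of the endoplasmic reticulum that helps assemble IgM.

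The lambda constant regions Iglc2 and Iglc3 are close copies of each other, which limits how reads can be assigned to Iglc3. Its exons and those of Iglc2 had the same base at 432 of 452 aligned positions (95.6%). The next lines give a 240 base stretch of coding exon from each gene, read from the GENCODE M21 transcripts (GRCm38, minus strand; Iglc2 at chr16:19198613-19198852, Iglc3 at chr16:19065442-19065681), with the 10 bases that differ in capitals.
Iglc2: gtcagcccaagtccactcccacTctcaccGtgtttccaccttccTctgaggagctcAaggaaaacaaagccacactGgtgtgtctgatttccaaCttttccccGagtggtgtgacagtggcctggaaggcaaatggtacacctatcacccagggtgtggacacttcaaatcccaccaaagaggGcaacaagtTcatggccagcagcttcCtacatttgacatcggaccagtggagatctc
Iglc3: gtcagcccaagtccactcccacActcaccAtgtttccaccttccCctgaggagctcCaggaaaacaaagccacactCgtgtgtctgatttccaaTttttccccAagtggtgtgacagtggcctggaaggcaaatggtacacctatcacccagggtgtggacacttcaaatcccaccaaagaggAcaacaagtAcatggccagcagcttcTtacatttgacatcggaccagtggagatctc
Long runs between the capitals are the same in both genes, and a read that falls within such a run could belong to either, so values of Iglc3 alone are uncertain.

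Jchain was the only 1 of the 8 genes found in the RefSeq promoter table (GRCm38.p6). Its promoter is shown because Jchain is transcribed at a high rate mainly in antibody-secreting cells. The 300 bases at chr5:88527848-88528147 (minus strand) run from 250 before the transcription start to 50 after it.
Jchain: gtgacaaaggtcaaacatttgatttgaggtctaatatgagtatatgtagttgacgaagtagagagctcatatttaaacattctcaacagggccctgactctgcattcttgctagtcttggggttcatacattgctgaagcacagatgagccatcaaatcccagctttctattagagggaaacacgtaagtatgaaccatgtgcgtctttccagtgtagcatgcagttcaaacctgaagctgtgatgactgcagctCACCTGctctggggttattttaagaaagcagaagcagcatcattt
The capitals mark a CACCTG, an E-box of the kind E proteins bind, at base 6 after the start. This E-box, CAGGTG or CACCTG on either strand, is held by 20.2% of the 32851 promoters of the same length in the table. The octamer ATGCAAAT, which is known from immunoglobulin variable segment promoters, was searched on both strands and is not in these letters; 1.74% of the promoters hold it.

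Positions are from the deposited table, on GRCm39. Igkc (ENSMUSG00000076609) lies on chromosome 6 from 70703420 to 70703951 on the plus strand, and Iglc3 (ENSMUSG00000105547) on chromosome 16 from 18883981 to 18884432 on the minus strand. The 4 heavy chain regions share a locus on the minus strand of chromosome 12, in the order in which they are transcribed: Ighm (ENSMUSG00000076617) from 113382179 to 113386351, Ighd (ENSMUSG00000104213) from 113370225 to 113379945, Ighg1 (ENSMUSG00000076614) from 113288861 to 113294144 and Igha (ENSMUSG00000095079) from 113218451 to 113223857. Jchain (ENSMUSG00000067149) lies on chromosome 5 from 88667669 to 88675751 on the minus strand. Mzb1 (ENSMUSG00000024353) lies on chromosome 18 from 35780321 to 35782421 on the minus strand.

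All 8 genes were highest in the same 2 tumours, GrB-Fc-KS49 replicates 1 and 2, and the IgG means were lower than the GrB-Fc-KS49 means for each gene. No difference passed the test: with edgeR's quasi-likelihood test and Benjamini-Hochberg adjustment, 0 of 7 tested members had an adjusted p under 0.05, as had 0 of all 19718 genes tested (percent called, 0%). Before adjustment, 6 of the 7 had a p under 0.05 and a higher level in GrB-Fc-KS49 tumours, against 17.3% of all genes tested (35.1% in either direction). Low genes can pass the filter on low counts through the group where they are high. Iglc3, Ighd and Jchain, at 6 to 8, 2 to 12 and 1 to 27 counts in IgG tumours, passed through the GrB-Fc-KS49 tumours. For these genes a higher level was in part fixed by the filter, so the count of higher members is no independent support. Over all genes 6915 had an unadjusted p under 0.05, and DESeq2 called 4747 genes and 6 members, all but Ighm, at an adjusted p under 0.05. With GrB-Fc-KS49 replicate 4 left out, edgeR made 3447 calls, among them 4 members, Igkc, Iglc3, Ighd and Ighg1. The median log2 fold change of the 7 members was 2.54, that of all genes tested 0.03; without GrB-Fc-KS49 replicate 1 these medians were 2.08 and 0.02. Each member's log2 fold change was above 0, as was that of 53.2% of all genes tested.

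**Figure D1:**
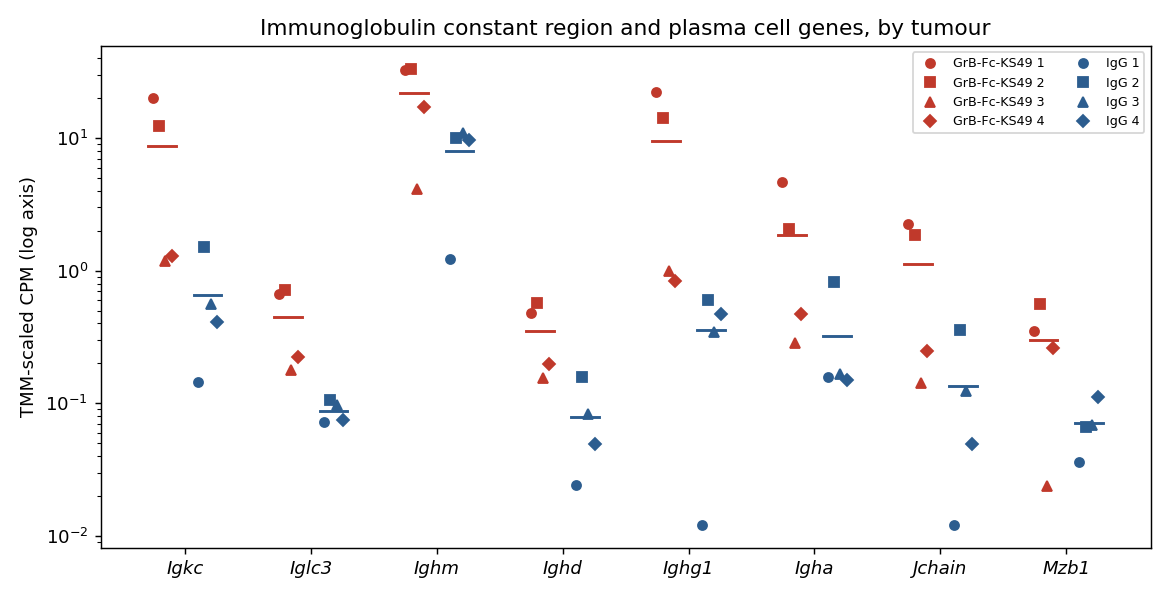
Levels of the 8 genes in each tumour, as CPM with TMM scaling (trimmed mean of M-values) on a log axis; red points are GrB-Fc-KS49 tumours, blue points IgG tumours, marker shapes give the replicate and short lines the group means. GrB-Fc-KS49 replicates 1 and 2 are the highest of all 8 tumours for every gene, and only for Iglc3 and Ighg1 do all red points lie above all blue ones.

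Igkc, the kappa light chain constant region carried by most mouse antibodies, was the most abundant light chain gene in every tumour. It had 20.0, 12.4, 1.19 and 1.28 CPM across GrB-Fc-KS49 replicates 1 to 4, against 0.145, 1.50, 0.566 and 0.409 CPM in IgG replicates 1 to 4. GrB-Fc-KS49 replicates 1 and 2 stood far above the rest, while replicates 3 and 4 were below IgG replicate 2, so the groups overlapped. The means were 8.71 ± 9.17 CPM in GrB-Fc-KS49 tumours, against 0.656 ± 0.591 CPM in IgG tumours (SD, n = 4 each), a log2 fold change of 3.73 ± 1.10 (SE; edgeR adjusted p = 0.0675). With GrB-Fc-KS49 replicate 1 left out, the mean of that group was 4.96 CPM and the log2 fold change 2.92, with an edgeR adjusted p of 0.127. Without GrB-Fc-KS49 replicate 4 the log2 fold change was 4.09, with an edgeR adjusted p of 0.0393. Without IgG replicate 2 the log2 fold change was 4.54, with an edgeR adjusted p of 0.147.

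Iglc3, a lambda light chain constant region, was low but separated the groups. It had 0.664, 0.719, 0.178 and 0.224 CPM across GrB-Fc-KS49 replicates 1 to 4, against 0.0725, 0.105, 0.0966 and 0.0744 CPM in IgG replicates 1 to 4. Every GrB-Fc-KS49 tumour was above every IgG tumour, although the IgG values rest on 6 to 8 counts a library. Its log2 fold change was 2.33 ± 0.52 (SE; edgeR adjusted p = 0.0619). Of the 7 members tested, 2 had groups that did not overlap with GrB-Fc-KS49 higher, Iglc3 and Ighg1, against 10.3% of all genes tested. For Iglc3 this is limited by its passing the filter through the GrB-Fc-KS49 tumours. The other lambda genes with rows, Iglc1 and Iglc2, were too low for the filter: Iglc1 had 15, 76, 2 and 1 counts across GrB-Fc-KS49 replicates 1 to 4, against 0, 0, 1 and 0 in IgG replicates 1 to 4. Iglc2 had 36, 24.5, 3 and 6 counts across GrB-Fc-KS49 replicates 1 to 4, against 2, 1, 1 and 1 in IgG replicates 1 to 4. To set aside how reads were divided between Iglc2 and Iglc3, the 3 lambda genes were summed, a choice made after seeing the data. This sum also holds Iglc1, which is less like the other lambda genes. The sum was 1.30, 2.06, 0.238 and 0.311 CPM across GrB-Fc-KS49 replicates 1 to 4, against 0.0967, 0.119, 0.124 and 0.0868 CPM in IgG replicates 1 to 4. The summed lambda level also had no overlap between the groups, and replicate 2 rather than replicate 1 was its highest tumour.

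Ighm, the constant region of IgM and the first class any B cell makes, was the most abundant of the 8 genes in CPM in the IgG tumours and had the smallest fold change of the 7 tested. It had 32.5, 33.4, 4.12 and 17.2 CPM across GrB-Fc-KS49 replicates 1 to 4, against 1.22, 10.1, 10.9 and 9.62 CPM in IgG replicates 1 to 4. GrB-Fc-KS49 replicate 3 was below 3 of the 4 IgG tumours, and IgG replicate 1 was far below the other IgG tumours. The means were 21.8 ± 14.0 CPM in GrB-Fc-KS49 tumours, against 7.97 ± 4.53 CPM in IgG tumours, a log2 fold change of 1.45 ± 0.75 (SE; edgeR unadjusted p = 0.0883, adjusted p = 0.200). Both low tumours are the libraries marked U, which were the lowest of their group for 7 of the 8 genes in GrB-Fc-KS49 tumours and for 7 of the 8 in IgG tumours. With the mark as a covariate the log2 fold change of Ighm was 1.51, with an edgeR unadjusted p of 8.6e-05 and an adjusted p of 0.0701. Leaving out both marked libraries gave 1.44, with an edgeR unadjusted p of 0.000584 and an adjusted p of 0.162. Under either choice 0 members and 0 genes passed.

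Ighd, the constant region of IgD, which mature naive B cells carry beside IgM, was at the edge of detection in IgG tumours. It had 0.476, 0.573, 0.155 and 0.199 CPM across GrB-Fc-KS49 replicates 1 to 4, against 0.0242, 0.158, 0.0828 and 0.0496 CPM in IgG replicates 1 to 4. The groups overlapped by a single pair, GrB-Fc-KS49 replicate 3 and IgG replicate 2. The log2 fold change was 2.14 ± 0.61 (SE; edgeR adjusted p = 0.0646).

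Ighg1, the constant region of the IgG1 class, had the largest fold change of the 7 members tested. It had 22.1, 14.3, 0.999 and 0.833 CPM across GrB-Fc-KS49 replicates 1 to 4, against 0.0121, 0.606, 0.345 and 0.471 CPM in IgG replicates 1 to 4. All GrB-Fc-KS49 tumours were above all IgG tumours, but replicates 3 and 4 were close to the highest IgG tumour and replicates 1 and 2 far above it. In estimated counts these are 1769, 1074, 84 and 67 across GrB-Fc-KS49 replicates 1 to 4, against 1, 46, 25 and 38 in IgG replicates 1 to 4. The means were 9.57 ± 10.5 CPM in GrB-Fc-KS49 tumours, against 0.359 ± 0.255 CPM in IgG tumours, a log2 fold change of 4.74 ± 1.31 (SE; edgeR adjusted p = 0.0631). Without GrB-Fc-KS49 replicate 1 the GrB-Fc-KS49 mean was 5.38 CPM and the log2 fold change 3.90.

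Igha, the constant region of IgA, the class of mucosal surfaces, was carried by a single tumour more than any other member. It had 4.68, 2.05, 0.286 and 0.472 CPM across GrB-Fc-KS49 replicates 1 to 4, against 0.157, 0.817, 0.166 and 0.149 CPM in IgG replicates 1 to 4. IgG replicate 2 was above GrB-Fc-KS49 replicates 3 and 4, so the groups overlapped. The log2 fold change was 2.54 ± 0.98 (SE; edgeR adjusted p = 0.112). Leaving out GrB-Fc-KS49 replicate 1 gave 1.53, and leaving out IgG replicate 2 gave 3.56.

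The remaining heavy chain classes were sparse, and none of their genes passed the filter. Ighg2b had 53, 44, 2 and 2 counts across GrB-Fc-KS49 replicates 1 to 4, against 0, 12, 1.25 and 1 in IgG replicates 1 to 4. Ighg2c had 5, 31, 2 and 0 counts across GrB-Fc-KS49 replicates 1 to 4, against 1, 10, 3.75 and 0 in IgG replicates 1 to 4; GRCm39 is a C57BL/6J genome, and Balb/c mice carry Ighg2a at that place in the locus, so reads listed under Ighg2c may come from another gene. Ighg3 had 9, 16, 0 and 1 counts across GrB-Fc-KS49 replicates 1 to 4, against 2, 0, 1 and 0 in IgG replicates 1 to 4. Ighe, the constant region of IgE, had 5, 1, 0 and 1 counts across GrB-Fc-KS49 replicates 1 to 4, against 2, 2, 0 and 0 in IgG replicates 1 to 4. For Ighg2b, Ighg2c and Ighg3 most counts lay in GrB-Fc-KS49 replicates 1 and 2, and Ighe was under the 3 counts that a count of 0 allows in 7 of the 8 tumours.

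Jchain had its highest values in the tumours where Igkc had them. It had 2.24, 1.86, 0.143 and 0.249 CPM across GrB-Fc-KS49 replicates 1 to 4, against 0.0121, 0.356, 0.124 and 0.0496 CPM in IgG replicates 1 to 4. IgG replicate 2 was above GrB-Fc-KS49 replicates 3 and 4. The log2 fold change was 3.05 ± 1.11 (SE; edgeR adjusted p = 0.0971). It was 2.47 with GrB-Fc-KS49 replicate 1 left out, and 4.17 with IgG replicate 2 left out.

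Mzb1 did not pass the filter on low counts. It had 0.351, 0.559, 0.0238 and 0.261 CPM across GrB-Fc-KS49 replicates 1 to 4, against 0.0363, 0.0659, 0.0690 and 0.112 CPM in IgG replicates 1 to 4. GrB-Fc-KS49 replicate 3 was the lowest of all 8 tumours and the other GrB-Fc-KS49 tumours were above every IgG tumour. Without the filter, over 26709 genes, the log2 fold change was 2.03 ± 0.74 (SE; edgeR adjusted p = 0.121). A predicted gene, Gm50318, overlaps Mzb1 on the same strand, and the estimated counts of the pair were divided unevenly. With both summed, a choice made after seeing the data, the pair had 53.6, 42.2, 20.5 and 21.0 counts across GrB-Fc-KS49 replicates 1 to 4, against 3, 5.06, 6.35 and 9.19 in IgG replicates 1 to 4. The summed pair separated the groups, so the low value of Mzb1 in GrB-Fc-KS49 replicate 3 depended on that division.

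**Figure D2:**
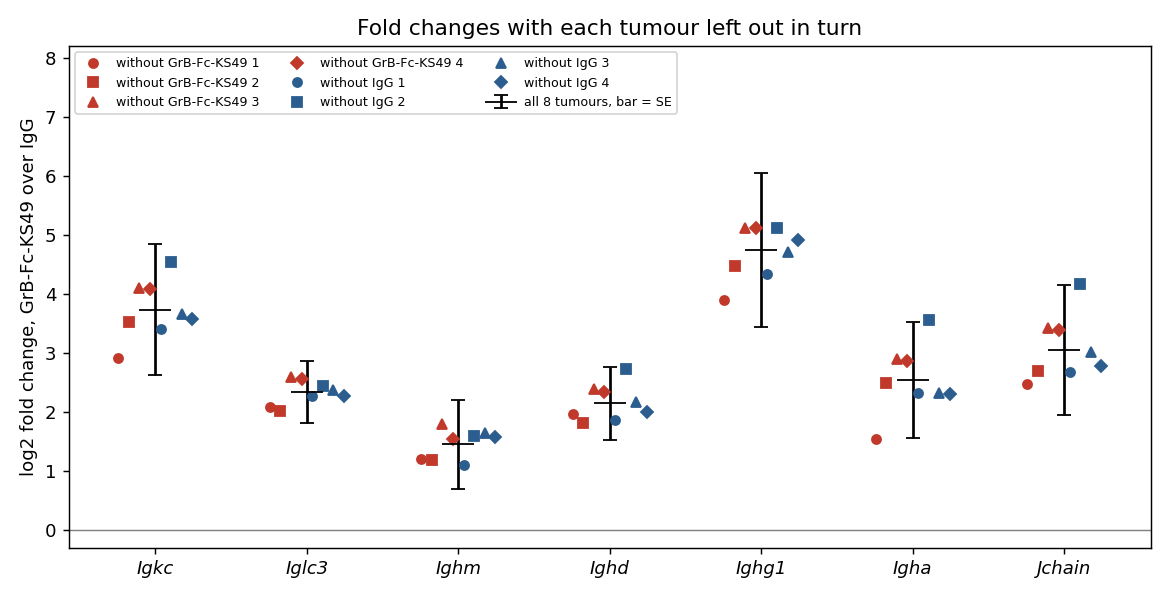
Log2 fold changes, GrB-Fc-KS49 over IgG, of the 7 members tested, with all 8 tumours (black, bar is the SE) and with each tumour left out in turn (red without a GrB-Fc-KS49 tumour, blue without an IgG tumour). All values are above 0; leaving out GrB-Fc-KS49 replicate 1 lowers Igkc to 2.92 and Igha to 1.53, and leaving out IgG replicate 2 raises Jchain to 4.17.

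CPM favours long transcripts, so levels of different genes were compared per kilobase of exon. In GrB-Fc-KS49 tumours Igkc averaged 16.4 ± 17.2, Ighm 11.6 ± 7.40 and Ighg1 3.69 ± 4.05 CPM per kilobase (SD, n = 4). In IgG tumours Igkc averaged 1.23 ± 1.11, Ighm 4.23 ± 2.40 and Ighg1 0.138 ± 0.0982 CPM per kilobase (SD, n = 4). Thus Igkc ranked first and Ighm second in GrB-Fc-KS49 tumours, against Ighm first and Igkc second in IgG tumours, though neighbours in each order lay within their spread. Within single tumours the ratio of Ighm to Igkc per kilobase was 0.46, 0.76, 0.98 and 3.80 across GrB-Fc-KS49 replicates 1 to 4, against 2.37, 1.90, 5.46 and 6.63 in IgG replicates 1 to 4. Igkc was the higher of the pair in 3 of the 4 GrB-Fc-KS49 tumours and in 0 of the 4 IgG tumours; this ratio was chosen after its values were seen and was not tested.

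Comparing classes within a tumour removes differences in B lineage RNA only if Ighg1 and Ighm come from the same cells, which was not tested. Over the 8 tumours Igkc had a Pearson r of 0.82 with Ighm and 0.98 with Ighg1, on log2(CPM + 0.1). Ighg1 made up 33.1% (95% Wilson interval 31.8 to 34.5), 23.7% (22.5 to 25.1), 15.0% (12.2 to 18.3) and 3.40% (2.68 to 4.30) of Ighg1 and Ighm per kilobase across GrB-Fc-KS49 replicates 1 to 4. The same share was 0.715% (0.126 to 3.95), 4.18% (3.14 to 5.54), 2.24% (1.52 to 3.29) and 3.44% (2.51 to 4.70) in IgG replicates 1 to 4. GrB-Fc-KS49 replicates 1, 2 and 3 were above every IgG tumour beyond counting error, replicate 4 lay among the IgG tumours, and the intervals cover counting error only. The mean share was 18.8 ± 12.7% in GrB-Fc-KS49 tumours and 2.64 ± 1.51% in IgG tumours. On the scale of log2(CPM + 0.1), the ratio of Ighg1 to Ighm averaged -1.98 ± 1.59 in GrB-Fc-KS49 tumours and -4.03 ± 0.45 in IgG tumours. This difference of 2.05 had an exact two-sided permutation p of 0.114, adjusted to 0.200 over the 7 ratios compared, where the smallest p that 4 against 4 tumours allow is 0.0286. Without GrB-Fc-KS49 replicate 4 the difference was 2.80, with an exact permutation p of 0.0286. That replicate is the GrB-Fc-KS49 tumour that lay among the IgG tumours, so leaving it out separated the groups. The p is then the smallest possible and is no independent support.

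**Figure D3:**
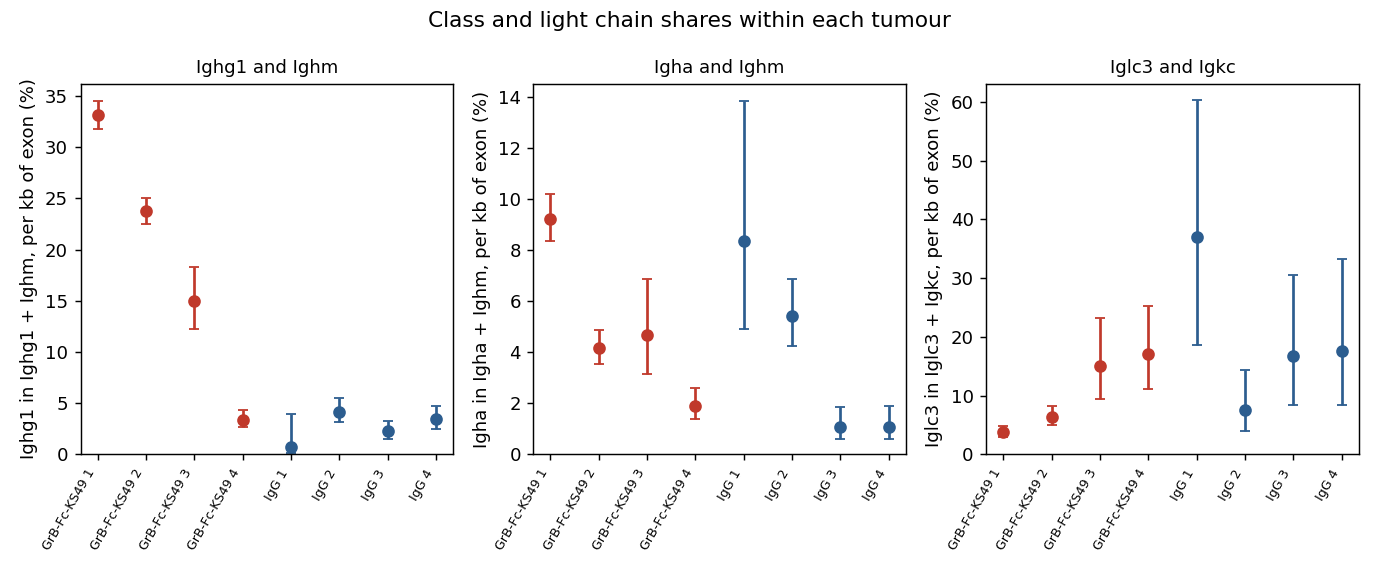
Share of Ighg1 in Ighg1 and Ighm, of Igha in Igha and Ighm and of Iglc3 in Iglc3 and Igkc, in percent of the levels per kilobase of exon, in each tumour (red GrB-Fc-KS49, blue IgG; bars are 95% Wilson intervals). For Ighg1, GrB-Fc-KS49 replicates 1 to 3 lie between 15.0 and 33.1% and all other tumours under 5%; the other pairs show no separation of the groups.

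The other class ratios did not pass either. Igha made up 9.23, 4.16, 4.67 and 1.90% of Igha and Ighm per kilobase across GrB-Fc-KS49 replicates 1 to 4, against 8.34, 5.41, 1.06 and 1.08% in IgG replicates 1 to 4. The groups overlapped widely, and the log2 ratio of Igha to Ighm differed by 0.35 (exact two-sided permutation p = 0.714). The log2 ratio of Ighd to Ighm averaged -5.34 ± 0.87 in GrB-Fc-KS49 tumours and -5.16 ± 1.21 in IgG tumours, a difference of -0.18 (exact two-sided permutation p = 0.714). Iglc3 made up 3.76, 6.39, 15.0 and 17.1% of Iglc3 and Igkc per kilobase across GrB-Fc-KS49 replicates 1 to 4, against 37.0, 7.63, 16.7 and 17.6% in IgG replicates 1 to 4. The groups overlapped, and the log2 ratio of Iglc3 to Igkc differed by -1.54 (exact two-sided permutation p = 0.143).

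Both secretion genes were set against Igkc in the same way. The log2 ratio of Jchain to Igkc was -3.10, -2.67, -2.41 and -1.99 across GrB-Fc-KS49 replicates 1 to 4, against -1.13, -1.81, -1.57 and -1.77 in IgG replicates 1 to 4. Every GrB-Fc-KS49 tumour was lower than every IgG tumour, a difference of -0.97 (exact two-sided permutation p = 0.0286, the smallest possible; adjusted 0.200 over the 7 ratios). Jchain was at or under 0.249 CPM in 5 tumours, and with a pseudocount of 0.02 the difference was -0.50 with an exact permutation p of 0.0857. Mzb1 to Igkc, with Mzb1 not summed with Gm50318, differed by -1.92 (exact two-sided permutation p = 0.0857). Igkc was also set against Cd79a, a signalling chain of the B cell receptor that plasma cells express little. That log2 ratio was 4.62, 4.65, 2.41 and 2.15 across GrB-Fc-KS49 replicates 1 to 4, against 0.72, 3.06, 1.98 and 1.27 in IgG replicates 1 to 4. GrB-Fc-KS49 replicates 1 and 2 were the highest and IgG replicate 2 came next, a difference of 1.70 between the group means (exact two-sided permutation p = 0.114). The pseudocount of 0.1 CPM exceeded the IgG means of Mzb1 (0.0707 CPM), Cd79a (0.0803), Iglc3 (0.0872) and Ighd (0.0787). Log2 ratios with these genes therefore follow the other gene of the pair in large part.

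Variable segments, which form the antigen-binding ends of the chains, had 40 rows in the table: 17 of the heavy chain family Ighv, 22 of the kappa family Igkv and 1 lambda row, Iglv1. Summed Igkv counts were 178, 239, 26.0 and 17.0 across GrB-Fc-KS49 replicates 1 to 4, against 0, 28.0, 13.0 and 12.5 in IgG replicates 1 to 4. These sums were high in the 2 tumours where Igkc was high, and IgG replicate 1, with no Igkv count in 22 rows, also had the lowest Igkc. Among Igkv segments, 6 and 8 reached 10 counts in GrB-Fc-KS49 replicates 1 and 2, and 0 did so in each of the other 6 tumours. The most abundant variable segment was Igkv5-37 in GrB-Fc-KS49 replicate 1 with 37 counts, and Iglv1 in GrB-Fc-KS49 replicate 2 with 46.4. Igkv5-37 held 20.7% (95% Wilson interval 15.5 to 27.3) of the Igkv counts of GrB-Fc-KS49 replicate 1 and 0 counts in the other 3 GrB-Fc-KS49 tumours. Igkv1-135, the leading kappa segment of GrB-Fc-KS49 replicate 2, held 18.8% (14.4 to 24.3) of its Igkv counts. No single kappa segment therefore made up most of the kappa counts in either tumour, over the 22 rows present.

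Summed heavy variable counts had another order across the tumours. The Ighv rows include Ighv3-2, Ighv12-1, Ighv12-2 and Ighv15-1, which are annotated as pseudogenes, so Ighv sums do not stand for antibody heavy chains alone. Summed Ighv counts were 64.0, 103, 184 and 142 across GrB-Fc-KS49 replicates 1 to 4, against 78.0, 128, 91.8 and 166 in IgG replicates 1 to 4. GrB-Fc-KS49 replicates 1 and 2, where Igkc and Ighg1 were high, thus had lower Ighv sums than replicates 3 and 4. Ighv15-1, a pseudogene, was the most abundant variable segment in GrB-Fc-KS49 replicate 3 and in all 4 IgG tumours. It had 2, 8, 46 and 27 counts across GrB-Fc-KS49 replicates 1 to 4, against 18, 37, 29 and 58 in IgG replicates 1 to 4, a log2 fold change of -0.83 ± 0.72 (SE; edgeR adjusted p = 0.430). Ighv14-1, the most abundant in GrB-Fc-KS49 replicate 4, had 3.66, 9.52, 38.6 and 27.2 counts across GrB-Fc-KS49 replicates 1 to 4, against 13.0, 14.8, 13.5 and 25.6 in IgG replicates 1 to 4; the log2 fold change was 0.20 ± 0.59 (SE), and edgeR did not call it. Both segments were lowest in GrB-Fc-KS49 replicates 1 and 2. Some sparser Ighv rows were highest there instead. Ighv3-6 had 8, 21, 0 and 4 counts across GrB-Fc-KS49 replicates 1 to 4, against 0, 0, 1 and 0 in IgG replicates 1 to 4. Ighv3-2 had 19, 4, 0 and 0 counts across GrB-Fc-KS49 replicates 1 to 4, against 0, 1, 0 and 0 in IgG replicates 1 to 4. The order of the sums is thus not that of every Ighv row.

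**Figure D4:**
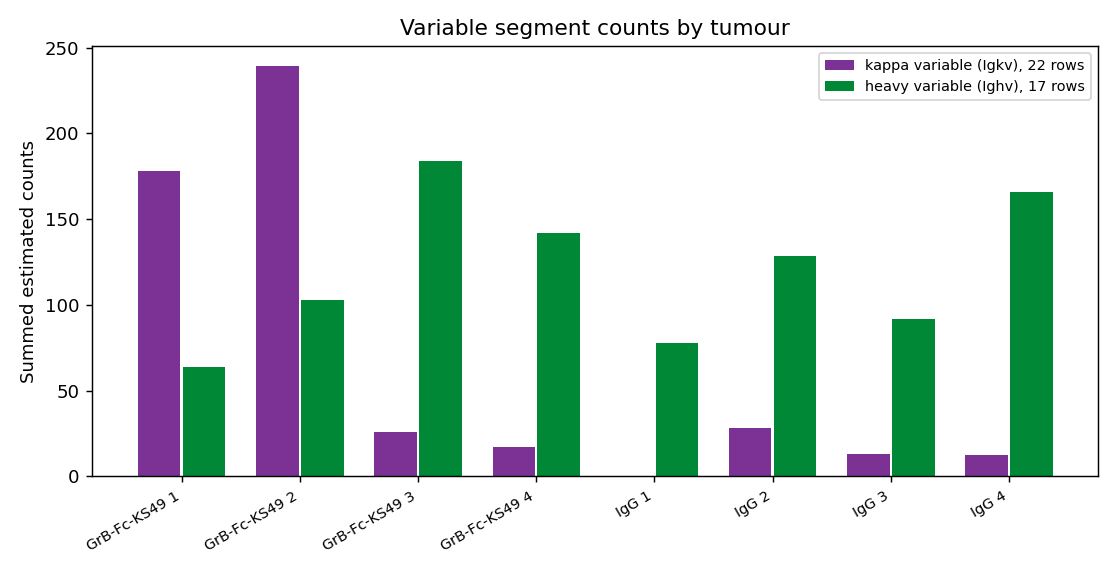
Summed estimated counts of kappa variable (purple) and heavy variable (green) segments, pseudogenes included, in each tumour, GrB-Fc-KS49 on the left and IgG on the right. Kappa sums are 178 and 239 in GrB-Fc-KS49 replicates 1 and 2 and at most 28.0 elsewhere, while heavy sums range from 64.0 to 184 without that pattern.

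The genes around antibody production were described from lists. Low genes of any list can likewise pass the filter through the group where they are high. Counts of higher genes in these lists are therefore no independent support. Of 22 genes of plasma cell identity and secretion, 17 were tested, 12 were higher with GrB-Fc-KS49 and 5 lower, 0 passed, and 6 were higher and 2 lower at an unadjusted p under 0.05, against 17.3% higher and 17.8% lower of all genes. Their median log2 fold change was 0.30, and 0.18 without GrB-Fc-KS49 replicate 1. Sec11c, a subunit of the signal peptidase, averaged 54.2 ± 9.94 CPM in GrB-Fc-KS49 tumours, against 38.7 ± 2.29 CPM in IgG tumours (edgeR adjusted p = 0.0619). Ell2, an elongation factor that favours the secreted form of the heavy chain, averaged 29.9 ± 9.02 CPM in GrB-Fc-KS49 tumours, against 48.5 ± 4.86 CPM in IgG tumours (edgeR adjusted p = 0.0646). Fkbp11, a prolyl isomerase of secretory cells, averaged 35.7 ± 4.81 CPM in GrB-Fc-KS49 tumours, against 28.4 ± 2.17 CPM in IgG tumours (edgeR adjusted p = 0.0778). Edem1, a factor for degrading misfolded glycoproteins, was the other gene lower at an unadjusted p under 0.05, with a log2 fold change of -0.21, and Xbp1, Prdm1 and Txndc5 were the remaining 3 of the 5 lower. These genes, like Sdc1, which plasma cells display as CD138, are also expressed by epithelial and other secretory cells: Sdc1 averaged 428 ± 64.7 CPM in GrB-Fc-KS49 tumours, against 389 ± 12.6 CPM in IgG tumours (edgeR adjusted p = 0.382).

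The transcription factors that drive the plasma cell state did not pass, and their groups overlapped. Xbp1, which expands the secretory apparatus, averaged 113 ± 16.2 CPM in GrB-Fc-KS49 tumours, against 131 ± 8.06 CPM in IgG tumours (edgeR adjusted p = 0.195). Prdm1, which encodes Blimp-1, averaged 22.6 ± 6.59 CPM in GrB-Fc-KS49 tumours, against 28.0 ± 7.13 CPM in IgG tumours (edgeR adjusted p = 0.422). Irf4 averaged 1.23 ± 0.55 CPM in GrB-Fc-KS49 tumours, against 0.782 ± 0.208 CPM in IgG tumours (edgeR adjusted p = 0.221). Tnfrsf13b, the receptor TACI of B and plasma cells, averaged 8.89 ± 1.87 CPM in GrB-Fc-KS49 tumours, against 7.73 ± 1.30 CPM in IgG tumours (edgeR adjusted p = 0.449). Other genes of the list were too low to test. Fcrl5, a receptor of B and plasma cells, had 60, 18, 0 and 15 counts across GrB-Fc-KS49 replicates 1 to 4 and 0 in each IgG tumour, which allows up to 3 counts a library. Pou2af1, a coactivator of immunoglobulin promoters, had 18, 23, 6 and 11 counts across GrB-Fc-KS49 replicates 1 to 4, against 2, 4, 2 and 1 in IgG replicates 1 to 4. Tnfrsf17, the survival receptor BCMA of plasma cells, had 5, 1, 4 and 2 counts across GrB-Fc-KS49 replicates 1 to 4, against 0, 1, 0 and 2 in IgG replicates 1 to 4. Fcrl5, Pou2af1 and Tnfrsf17 were described after their values were seen, and Tnfrsf17 was near the limit of detection in all tumours.

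B cell genes lay on 1 side, which for low genes was in part fixed by the filter. Cd79a, at 4 to 9 counts in IgG tumours, passed it through the GrB-Fc-KS49 tumours. Of 21 listed, 13 were tested, all 13 had a log2 fold change above 0, 0 passed, 10 had an unadjusted p under 0.05, against 17.3% higher at that p and 53.2% above 0 of all genes, and the median log2 fold change was 1.39 (1.07 without GrB-Fc-KS49 replicate 1). Spib, a transcription factor of B cells and plasmacytoid dendritic cells, averaged 1.42 ± 0.72 CPM in GrB-Fc-KS49 tumours, against 0.325 ± 0.096 CPM in IgG tumours (edgeR adjusted p = 0.0619). Cd22, an inhibitory receptor of B cells, had a log2 fold change of 1.88 (edgeR adjusted p = 0.0619). Ly6d, also among the 13, had 9.66 ± 18.6 CPM in GrB-Fc-KS49 tumours, where the SD exceeds the mean. Cd79a, the bottom of a ratio above, averaged 0.367 ± 0.255 CPM in GrB-Fc-KS49 tumours, against 0.0803 ± 0.0275 CPM in IgG tumours, and its partner Cd79b had a log2 fold change of 2.17, as had Cd79a. Ms4a1, which encodes CD20 and was too low to test, had 23, 33, 5 and 16 counts across GrB-Fc-KS49 replicates 1 to 4, against 6, 1, 3 and 6 in IgG replicates 1 to 4. Its highest counts were in GrB-Fc-KS49 replicates 1 and 2, where the constant regions were also highest.

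Genes of B cell receptor signalling, which myeloid cells share in part, were less uniform: 10 were tested, 7 were higher and 3 lower (Syk, Plcg2 and Rasgrp3) and 0 passed. At an unadjusted p under 0.05 3 were higher (Cd79a, Cd79b and Cd81), against 17.3% of all genes, with a median log2 fold change of 0.23 (0.11 with GrB-Fc-KS49 replicate 1 left out, 0.14 with replicate 2 left out). Of 11 class switch and germinal centre genes tested, 6 were higher and 5 lower and 0 passed, with a median log2 fold change of 0.04. At an unadjusted p under 0.05, Il21r, the receptor of a helper cytokine, was higher with a log2 fold change of 1.21, and Mybl1 and Bcl6, transcription factors of the germinal centre, were lower with -0.39 and -0.15. Vpreb1 and Dntt, markers of early B cells of the bone marrow, had log2 fold changes of 1.01 and 1.64 at under 1 CPM.

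Factors that attract or sustain B cells and plasma cells were tested in 15 cases, of which 13 were higher and 2 lower (Ccl28 and Ccl25) and 0 passed. At an unadjusted p under 0.05 7 were higher and 1, Ccl28, lower, against 17.3% higher and 17.8% lower of all genes, with a median log2 fold change of 0.71 (0.36 without GrB-Fc-KS49 replicate 2). Cxcl13, the chemokine that draws B cells into follicles, had 7.47, 4.75, 0.964 and 4.39 CPM across GrB-Fc-KS49 replicates 1 to 4, against 0.0242, 0.765, 0.635 and 0.285 CPM in IgG replicates 1 to 4. Every GrB-Fc-KS49 tumour was above every IgG tumour, with a log2 fold change of 3.37 ± 0.88 (SE; edgeR adjusted p = 0.0619). Ccr9 and Ccr7, chemokine receptors that guide lymphocytes to the gut and to lymph nodes, had log2 fold changes of 2.23 and 1.31. Tnfsf13b, the survival factor BAFF, averaged 20.8 ± 9.05 CPM in GrB-Fc-KS49 tumours, against 11.2 ± 2.92 CPM in IgG tumours (edgeR adjusted p = 0.104), and Tnfsf13, the related factor APRIL, averaged 4.42 ± 1.21 CPM in GrB-Fc-KS49 tumours, against 3.36 ± 0.25 CPM in IgG tumours (edgeR adjusted p = 0.199). Of 9 antibody transport and Fc receptor genes tested, 8 were higher and 1, Pigr, lower, and 0 passed; 2 were higher at an unadjusted p under 0.05, a share near the 17.3% of all genes. Fcgr4, an activating receptor of myeloid cells for IgG, had 165, 61.4, 9.11 and 21.5 CPM across GrB-Fc-KS49 replicates 1 to 4, against 4.16, 12.6, 17.8 and 11.9 CPM in IgG replicates 1 to 4 (edgeR adjusted p = 0.0888). The groups overlapped, and the GrB-Fc-KS49 mean of 64.4 CPM was 30.7 CPM without replicate 1. Fcer1g, the signalling chain of such receptors, averaged 88.7 ± 46.2 CPM in GrB-Fc-KS49 tumours, against 50.8 ± 5.27 CPM in IgG tumours (edgeR adjusted p = 0.123).

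Markers of other cells and tissues that a dissected tumour can carry were set beside the constant regions; 0 genes of these lists passed, and 17.3% of all genes were higher at an unadjusted p under 0.05. Of 13 T cell markers tested, all 13 were higher, 11 at an unadjusted p under 0.05, with a median log2 fold change of 2.56; their summed level was 73.2 to 161 CPM in GrB-Fc-KS49 tumours, against 54.3 to 78.6 CPM in IgG tumours. The T cell sums overlapped between the groups. Of 10 plasmacytoid dendritic cell markers tested, 8 were higher and 2 lower (Tcf4 and Runx2), 8 higher at an unadjusted p under 0.05, and Siglech, a defining marker, had a log2 fold change of 2.01. These 8 include Ly6d at 9.66 ± 18.6 CPM and Cox6a2 at 3.97 ± 5.93 CPM in GrB-Fc-KS49 tumours, where the SD exceeds the mean. Ly6d and Spib were also in the B cell list, and Ccr9 in the list of attraction. The 7 lymph node stroma markers with a row summed to 21.6, 13.4, 2.70 and 7.31 CPM across GrB-Fc-KS49 replicates 1 to 4, against 1.004, 2.03, 1.85 and 1.62 CPM in IgG replicates 1 to 4. Ccl21a, a chemokine of lymph node and lymphatic vessels, had 2.49, 2.50, 0 and 0.112 CPM across GrB-Fc-KS49 replicates 1 to 4, against 0.0605, 0, 0 and 0.0124 CPM in IgG replicates 1 to 4. Glycam1, made by high endothelial venules, had 14, 29, 1 and 7 counts across GrB-Fc-KS49 replicates 1 to 4, against 1, 5, 3 and 2 in IgG replicates 1 to 4. The listed sum includes Ltb, a lymphotoxin gene, at 10.9, 5.43, 1.59 and 2.64 CPM across GrB-Fc-KS49 replicates 1 to 4. In IgG tumours Ltb had 0.858 to 1.25 CPM. Cxcl13, given above, is also in the sum, which therefore does not stand for stroma alone. GrB-Fc-KS49 replicates 1 and 2, with the highest immunoglobulin levels, also had the highest sum of this list. The part of lymph node tissue in the result was not tested.

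RNA of other host tissues also varied between the tumours. Skeletal muscle markers, all 8 tested and 7 higher at an unadjusted p under 0.05 (17.3% of all genes) with 0 passing, summed to 2296, 298, 371 and 38.8 CPM across GrB-Fc-KS49 replicates 1 to 4, against 195, 57.3, 40.2 and 130 CPM in IgG replicates 1 to 4. Skin markers, of which 3 of 8 were tested, summed to 16.8, 2110, 12.2 and 8.64 CPM across GrB-Fc-KS49 replicates 1 to 4, against 6.60, 6.71, 6.98 and 16.3 CPM in IgG replicates 1 to 4. Adipocyte markers, 8 tested and all higher, summed to 147, 67.8, 460 and 75.3 CPM across GrB-Fc-KS49 replicates 1 to 4, against 47.7, 70.5, 64.8 and 87.5 CPM in IgG replicates 1 to 4. Muscle was highest in GrB-Fc-KS49 replicate 1, skin in replicate 2 and fat in replicate 3, so the tissue that stood out differed between tumours. The 5 erythroid markers tested were all higher with 0 at an unadjusted p under 0.05, and blood content summed to 165 to 829 CPM in GrB-Fc-KS49 tumours, against 202 to 573 CPM in IgG tumours. No marker of these tissues was at 0 in a whole group, and their part in the immunoglobulin levels was not tested.

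The genes whose levels followed a member most closely over the 8 tumours were sought among 14808 genes with a mean of at least 1 CPM. Immunoglobulin constant regions and segments were left out of this search. Likeness was Pearson's r of log2(CPM + 0.1), given as a description since all points share 8 libraries, which differ in group and tissue content. For Igkc the named genes were Abhd12, Tnfrsf4, Abi3 and Ncf4, at 0.98 to 0.99, with an unnamed gene between them. Tnfrsf4 encodes OX40, a receptor of activated T cells, and averaged 1.61 ± 0.96 CPM in GrB-Fc-KS49 tumours, against 0.544 ± 0.124 CPM in IgG tumours. For Ighm they were Slamf6, Spn, Hrh2, Erg28 and Kcnj10, at 0.98, of which Slamf6 and Spn encode surface proteins of lymphocytes. For Ighg1 they were Cd300c2, Abi3, Satb1, Nod1 and Neurl3, at 0.99; Satb1 encodes a chromatin organiser of lymphocytes and averaged 3.01 ± 1.65 CPM in GrB-Fc-KS49 tumours, against 1.15 ± 0.20 CPM in IgG tumours.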

How the data were processed

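Poly(A) RNA of 8 whole tumours was sequenced from stranded dUTP libraries, per the labels' protocols. Per the submitters' processing notes, bcl2fastq 2.19.1.403 and STAR were used with GRCm39. Not given in the sources used here are the counting program and its strand setting, so reads of overlapping antisense genes cannot be told apart. As deposited, the tables hold estimated counts per gene, of which 46.0 to 47.8% were whole, and CPM, both made by the authors; every gene listed had at least 10 counts in all. Counts were rounded, filtered with filterByExpr, scaled by TMM and tested with edgeR 4.0.16 (robust quasi-likelihood, R 4.3.3), Benjamini-Hochberg adjusted over 19718 genes, with a threshold of 0.05; levels printed are CPM scaled by TMM. DESeq2 1.42.0 and limma 3.58.1 on the deposited CPM were alternatives. Within-tumour ratios used a pseudocount of 0.1 CPM and exact permutation over 70 splits. Lengths and coding sequences came from GENCODE M21 (GRCm38). Variable segments with 10 counts were counted as present. The scripts were tested on simulated data.

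The members and the lists were chosen with earlier results of these data known, and no list carries a test of its own. Genes named are all members, every other constant region with a row, and up to 3 tested genes with the smallest p in each list. Most genes behind a count of 5 or fewer are also named. So are the 5 genes most like Igkc, Ighm and Ighg1, immunoglobulin genes left out, and the leading variable segment of each tumour. Others named from the lists for their known role were chosen after their values were seen. Replicates were numbered in accession order. No 2 libraries agreed within sampling noise. Ighg2a and Iglc4 were not analysed here.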

Additional observations from a re-analysis of the deposited data

Results flagged for a closer look

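In 30 sets of 4 tumours looked at, 3 had a tumour that stood apart from the other 3 of its group, where chance gives about 1 in 20. IgG replicate 1 had 1.22 CPM of Ighm, against 9.62 to 10.9 CPM in the other IgG tumours. IgG replicate 2 had 0.817 CPM of Igha, against 0.149 to 0.166 CPM in the other IgG tumours. GrB-Fc-KS49 replicate 3 had a log2 ratio of Ighd to Ighm of -4.05, above the -5.86 to -5.64 of the other GrB-Fc-KS49 tumours; it is also the GrB-Fc-KS49 tumour with the lowest Ighm.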

How the results depend on the processing

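Of 155 member values under an alternative, 142 kept their direction and side of the threshold, 13 passed it and 0 reversed. DESeq2 called 4747 genes, 6 members and 47 companion genes, and limma-voom with sample weights 1267 genes, 1 member (Iglc3) and 8 companion genes; the cause was not tested. Leaving out 1 tumour gave 0 to 3447 genes (1260 without GrB-Fc-KS49 replicate 1, 3447 without replicate 4), 0 to 4 members (Igkc, Iglc3, Ighd and Ighg1 without GrB-Fc-KS49 replicate 4), 0 to 37 companion genes (5 without GrB-Fc-KS49 replicate 1) and 4 to 8 members at an unadjusted p under 0.05. With limma-trend on log2(CPM + 1), a scale that by construction understates low genes, the log2 fold changes were 1.96 for Igkc, 2.17 for Ighg1, 0.89 for Igha, 0.76 for Jchain, 0.39 for Iglc3 and 0.32 for Ighd. With 1 CPM required in 4 libraries 1 member, Igkc, was at an unadjusted p under 0.05, since only Igkc and Ighm were then tested. The Ighg1 to Ighm difference ranged from 1.58 to 2.80 with 1 tumour left out, and that of Jchain to Igkc from -1.16 to -0.78, and the Jchain to Igkc difference was -0.50 with a pseudocount of 0.02. Segments reaching the minimum in a GrB-Fc-KS49 tumour numbered 22 at 10 counts, 39 at 3 and 7 at 30, against 6, 18 and 1 in an IgG tumour. Per coding length the Ighg1 share averaged 27.5 ± 17.2% in GrB-Fc-KS49 tumours, against 4.46 ± 2.53% in IgG tumours. Per coding length the Igha share averaged 8.19 ± 4.87% in GrB-Fc-KS49 tumours, against 6.52 ± 5.74% in IgG tumours. With both libraries marked U left out, 3 against 3 tumours cannot give an exact p under 0.05. No paired analysis was possible because replicate numbers were given in accession order and pair no tumours. Depth limits Mzb1, Iglc3, Ighd and the sparse classes, which rest on few counts in IgG tumours.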
